A study of Rattus norvegicus with 8 samples.

Results

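The cytosolic ribosomal protein genes were examined on the 8 arrays of this series. They were taken by gene name, as rat probes named Rpl (large subunit) or Rps (small subunit) with a number and at most 1 letter and 1 digit after it, together with the stalk proteins Rplp0, Rplp1 and Rplp2 and the protein Rpsa. Longer names, such as Rpl36al, fell outside this pattern. The rule gave 85 genes of 30914 named on the array, 52 of the large and 33 of the small subunit. They were measured by 209 probes of 45598, printed as 823 spots. The samples were osteoblast-like cells, released by enzymes from the calvariae of Wistar rats 3 to 5 days old. In the non-irradiated group, 4 cultures were not exposed to the laser. In the irradiated group, 4 cultures were exposed once to the light of an Er:YAG laser, with an energy density of 3.3 J/cm2 and the medium removed. RNA of both groups was collected 6 h later. For gene expression by PCR, the methods state that osteoinduction medium was given right after irradiation. It held ascorbic acid, β-glycerophosphate and dexamethasone. The methods name no separate medium for the arrays. The cultures carried replicate numbers 1 to 4 in both groups, and the names of the scanner files give both arrays of a number the same animal number.

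The ribosome of the cytosol is built of a large and a small subunit, each of ribosomal RNA and many proteins, and cells make these proteins in nearly equal numbers. Their messenger RNAs are among the most abundant of a growing cell. Many begin with a run of pyrimidines, the TOP element, through which the kinase mTOR and the protein Larp1 control their translation together. In osteoblasts, which secrete large amounts of collagen matrix, the ribosome is a main part of the synthetic machinery. A microarray signal reports the level of the message and not its translation. In a culture of mixed cells, fewer cells of a type and less RNA per cell cannot be told apart.

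The sequences below show where on a message the probes lay, since signals varied with this position. Each probe was a 60-base stretch of the sense strand, and every probe printed here had a reading frame that was open, or closed only by a stop codon at its last bases. The position is the place of the probe's first base in the transcript, counted from its start. The probes of Rps19, a small subunit protein that is needed for the processing of small subunit RNA, followed each other along the message.
Rps19, position 66: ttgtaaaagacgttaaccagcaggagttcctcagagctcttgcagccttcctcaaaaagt
Rps19, position 157: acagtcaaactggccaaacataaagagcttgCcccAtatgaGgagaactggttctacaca
Rps19, position 172: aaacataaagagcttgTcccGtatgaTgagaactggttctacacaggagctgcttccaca
Rps19, position 290: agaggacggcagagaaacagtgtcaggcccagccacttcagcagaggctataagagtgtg
They lay in the Rps19 gene on the plus strand of build rn4, at chr1:80177191-80177510, chr1:80177543-80177602, chr1:80177558-80180860 and chr1:80180919-80180977. The probes at 66 and 172 spanned 320 and 3303 bases of the genome and so joined separate exons. The probes at 157 and 172 shared 45 bases with 3 differences, in capitals, written from the first base of the probe at 157 as C32T, A36G and G42T. The last Rps19 probe, at position 465, is not printed.
Rpl5, position 367: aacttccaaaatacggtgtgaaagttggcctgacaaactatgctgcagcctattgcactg
Rpl5, position 897: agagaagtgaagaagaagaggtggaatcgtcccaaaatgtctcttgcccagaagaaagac
Rpl5, which binds 5S ribosomal RNA together with Rpl11, was covered at its middle and towards its end, at chr14:2401385-2401444 and chr14:2397752-2398364 on the minus strand of rn4, the latter across an intron.
Rps18, position 64: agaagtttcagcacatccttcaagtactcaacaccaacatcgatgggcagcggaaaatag
Rps18, position 269: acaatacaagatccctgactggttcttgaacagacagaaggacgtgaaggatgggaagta
Rps18, position 444: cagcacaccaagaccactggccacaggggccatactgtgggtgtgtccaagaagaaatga
Rps18, a protein of the small subunit's head, was covered at chr20:5084157-5084216, chr20:5086832-5086891 and chr20:5087201-5087260 on the plus strand of rn4.

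Many members, though not all, had a feature in common at the starts of their genes. In the RefSeq promoters of build GRCr8, 68 of the 85 genes had an entry. A run of at least 8 C or T bases, on the strand of the gene and within 10 bases before to 20 after the annotated start, was found for 41 of the 68 genes (60.3%). The share was 11.9% of all 27457 promoters and 6.67% of 60 genes of the mitochondrial ribosome, which has its own set of proteins. Among the members it was 59.5% of 42 large subunit genes and 61.5% of 26 small subunit genes. The windows of 30 bases show the run in capitals for a stalk protein, for Rpl19 and Rpl10 of the large subunit and for Rps18 and Rps24 of the small subunit.
Rplp0: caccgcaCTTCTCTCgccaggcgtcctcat
Rpl19: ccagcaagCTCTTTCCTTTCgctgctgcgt
Rpl10: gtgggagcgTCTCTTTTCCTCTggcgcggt
Rps18: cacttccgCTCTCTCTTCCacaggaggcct
Rps24: ggTCCTCTTTTCCTCCTTTacagctcgggc
These windows lay at chr12:46718371-46718400 on the minus strand, chr10:83519054-83519083 on the plus strand, chrX:157205840-157205869 on the plus strand, chr20:4933735-4933764 on the plus strand and chr16:96507-96536 on the plus strand. The windows of Rps19, Rpl5, Rpl11, Rps6 and Rpsa, among others, held no such run. A match of letters is no measure of translation, and a gene without the run in this window may start elsewhere.

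Almost every member gave a strong signal. Signals are given as log2 of the processed intensity after quantile normalization, which makes the distribution of all rat spots equal on the 8 arrays. Of the 209 probes, 207 were well above background on all 8 arrays and were tested, and these covered 84 genes. The exceptions were Rpl3l, a paralog best known from muscle, and 1 of the probes of Rpl28. The mean log2 signal of the 207 probes had a median of 17.3, and 187 of them (90.3%) lay within the brightest 10% of the 26391 probes tested on the array. The medians of the large and small subunit probes were 17.2 and 17.6. A probe's signal depends on its own sequence as well as on the message, so no gene's level was set against another's. None of the spots was saturated. The 68 probes printed at 10 spots each had a median SD between spots of 0.046 on the log2 scale.

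Most members varied little between arrays. The range of a probe over the 8 arrays had a median of 0.34 on the log2 scale for the 207 members, against 0.89 for all probes tested. The members were far brighter, with a median mean log2 signal of 17.3 against 7.58. No set of equally bright probes was compared, here or below. By the brightest probe of each gene, the steadiest were Rpl30l1, Rpl14 and Rpl30, with ranges of 0.09, 0.10 and 0.11. This does not hold for every probe of these genes. The Rpl14 probe at position 178 lay 0.53 below its own median over the arrays on non-irradiated replicate 1. It lay 0.27 below it on irradiated replicate 2 and 0.29 above it on non-irradiated replicate 2. Rpl30, a large subunit protein that can bind its own message, gave 17.26, 17.30, 17.32 and 17.27 on non-irradiated replicates 1 to 4 and 17.30, 17.25, 17.33 and 17.35 on irradiated replicates 1 to 4. No group stood apart for Rpl30, and the values of both groups overlapped. The probe of Rpl30l1, a gene of rat chromosome 13, held 31 bases that are identical to the Rpl30 probe, in capitals, and it gave 17.26, 17.30, 17.29 and 17.25 on non-irradiated replicates 1 to 4 and 17.28, 17.28, 17.28 and 17.33 on irradiated replicates 1 to 4. It was as level as Rpl30, with irradiated replicate 4 the highest array for both.
Rpl30: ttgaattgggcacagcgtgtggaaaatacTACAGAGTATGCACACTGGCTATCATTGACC
Rpl30l1: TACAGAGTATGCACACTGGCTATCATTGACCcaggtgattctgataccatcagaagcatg
The Rpl30 probe lay at chr7:69887663-69887722 on the minus strand and that of Rpl30l1 at chr13:93180470-93180529 on the plus strand of rn4. Of all 209 member probes, 64 probes of 36 genes matched a differently named probe of the array over at least 45 bases with at most 5 mismatches, so their signals may be shared with near-identical copies and are uncertain as values of 1 gene.

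A minority of members stood out on 2 arrays. Deviations below are a probe's log2 signal minus its own median over the 8 arrays. On non-irradiated replicate 1, 29 of 206 members lay more than 0.5 below their median and 2 lay more than 0.5 above it. On irradiated replicate 2 these counts were 26 and 3 of 207, and on irradiated replicate 1 they were 8 and 2. On the other 5 arrays no more than 1 member was that far below. For all probes tested, 15.3% were that far below on non-irradiated replicate 1 and 14.7% on irradiated replicate 2, close to the members' 14.1% and 12.6%, whereas 15.8% and 12.4% were that far above, against 0.97% and 1.45% of the members. Non-irradiated replicate 1 and irradiated replicate 2 are therefore marked as standing apart, and results are also given without them.

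**Figure D1:**
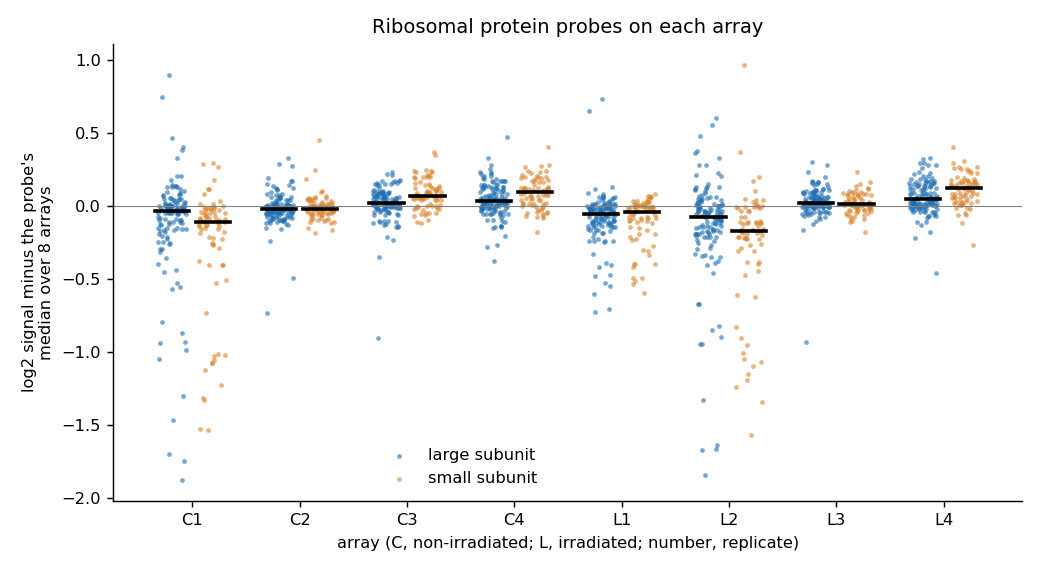
Each point is 1 of the 207 tested ribosomal protein probes on 1 array (C, non-irradiated; L, irradiated; the number is the replicate). The vertical axis is log2 signal minus the probe's median over the 8 arrays, blue marks the large and orange the small subunit, and black lines are medians. The long lower tails lie on C1 and L2, with a shorter one on L1.

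The lower tail was densest among probes near the starts of the messages. Of the 33 member probes in the first 200 bases, 16 lay more than 0.5 below their median on non-irradiated replicate 1 and 14 on irradiated replicate 2, with median deviations of -0.45 and -0.38. Of the 73 probes from there to base 400 the counts were 7 and 7, of the 61 from there to base 600 they were 6 and 4, and of the 40 after base 600 they were 0 and 1.

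The same was seen between probes annotated to the same transcript. The Rps19 probe at position 66 gave 12.50, 14.04, 14.01 and 14.19 on non-irradiated replicates 1 to 4 and 13.52, 12.46, 14.13 and 14.32 on irradiated replicates 1 to 4. Its lowest values were on non-irradiated replicate 1 and irradiated replicate 2, and irradiated replicate 1 lay between these and the other 5 arrays, so that the groups overlapped fully. The Rps19 probe at position 465 gave 18.54, 18.56, 18.90 and 18.95 on non-irradiated replicates 1 to 4 and 18.74, 18.45, 18.61 and 18.85 on irradiated replicates 1 to 4, without such a drop. Along the message, the deviations on non-irradiated replicate 1 were -1.53, -1.03, -1.07, -0.40 and -0.14 at positions 66, 157, 172, 290 and 465. On irradiated replicate 2 they were -1.57, -1.07, -1.15, -0.47 and -0.22. On both arrays the deviation shrank from the start of the message to its end. The probes at 290 and 465 were among those that matched differently named probes. Those at 157 and 172 differ within the stretch they share, so these probes need not all report the same message.

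An Rpl5 probe had the largest range of the tested members, with one of Rpl29, another large subunit protein, next at 2.02. The Rpl5 probe at position 367 gave 11.79, 13.81, 13.68 and 13.66 on non-irradiated replicates 1 to 4 and 12.94, 11.83, 13.73 and 13.82 on irradiated replicates 1 to 4, a range of 2.03. The probe at position 897 gave 17.89, 17.92, 18.04 and 18.07 on non-irradiated replicates 1 to 4 and 17.90, 17.85, 18.07 and 18.07 on irradiated replicates 1 to 4, a range of 0.227. The 2 arrays that were lowest for the former, at -1.88 and -1.84, deviated by -0.09 and -0.14 for the latter.

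Rps18 followed the same order. Its probe at position 64 deviated by -1.53 on non-irradiated replicate 1 and by -1.24 on irradiated replicate 2. At position 269 these deviations were -0.26 and -0.12, and at position 444 they were -0.19 and -0.12. Rpl29, Rpl13a and Rps10 also had first probes that were low on the 2 arrays and last probes that were not. The plot of deviations along the transcripts shows this. First and last probes of Rpl29 and of Rps10 were among those that matched differently named probes, whereas the printed probes of Rpl5 and Rps18 were not.

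**Figure D2:**
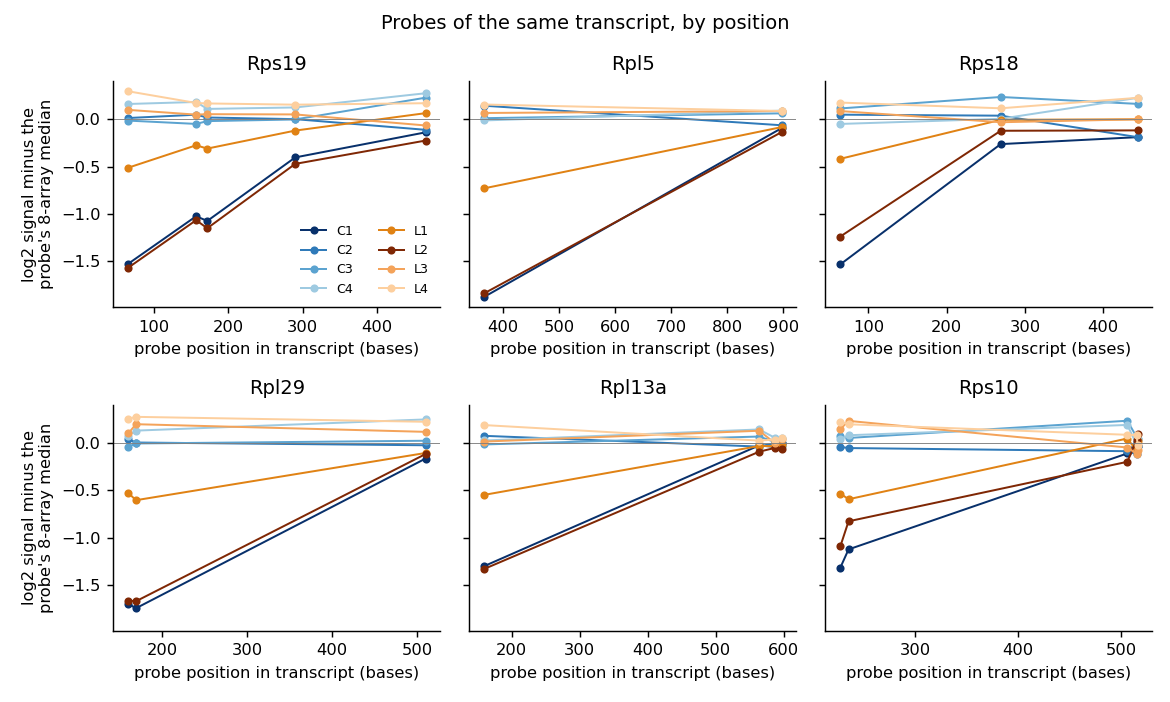
Each panel is 1 gene, each line 1 array (blue shades, non-irradiated C1 to C4; orange shades, irradiated L1 to L4) and each point 1 probe. The horizontal axis is the probe's position in the transcript in bases and the vertical axis its log2 signal minus its median over the 8 arrays. C1 and L2 fall away from the other arrays towards the start of each transcript, and L1 does so to a smaller extent.

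The comparison was made for every transcript with at least 2 tested probes that were 100 or more bases apart, by taking the deviation of the first probe minus that of the last. This difference compares an array with the other arrays for the same 2 probes, so a constant difference in brightness between them drops out. There were 40 such transcripts among the members, of 40 genes. The median difference was -0.29 on non-irradiated replicate 1, -0.21 on irradiated replicate 2 and -0.11 on irradiated replicate 1. On the other 5 arrays it was between -0.04 and 0.05. The first probe was lower by more than 0.5 in 13 of 40 transcripts on non-irradiated replicate 1, in 12 of 40 on irradiated replicate 2 and in 5 of 40 on irradiated replicate 1, and in none on the other 5 arrays. For 11 transcripts this held on both of the first 2 arrays.

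The pattern was not particular to the ribosomal proteins. Among the transcripts of other genes, 2325 on non-irradiated replicate 1 and 2317 on irradiated replicate 2, the median difference was -0.19 and -0.14. The first probe was lower by more than 0.5 in 29.5% and 26.5% of them, against 32.5% and 30.0% of the members. The upper tail was shorter for the members, where the 90th percentile of the difference was -0.04 and 0.12, against 0.65 and 0.74 for other genes. These shares are descriptions, and no test was made of a difference between the sets.

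**Figure D3:**
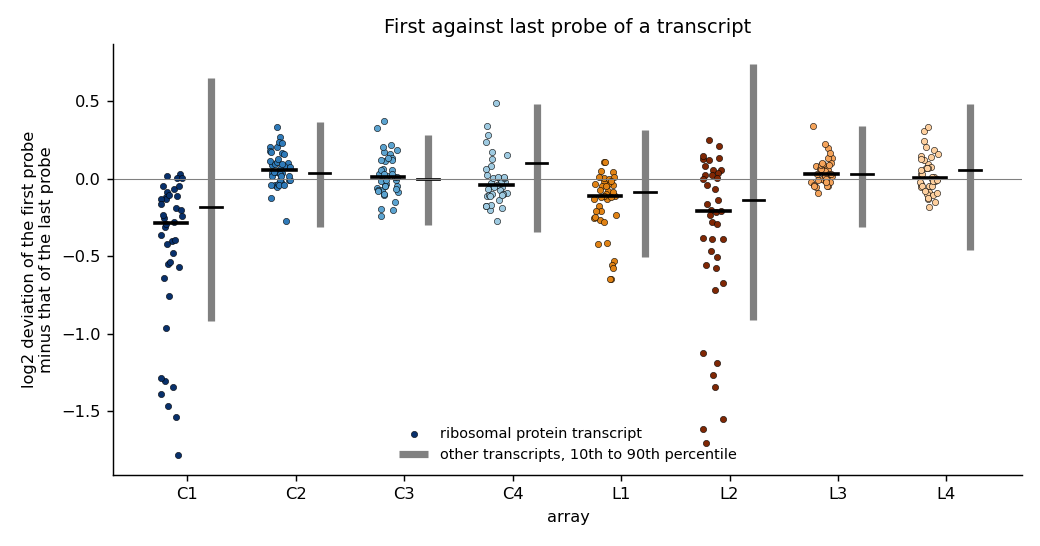
Points are the 40 ribosomal protein transcripts on each array (C, non-irradiated; L, irradiated), black lines their medians, and grey bars the 10th to 90th percentile of the transcripts of other genes with their median as a short black line. The vertical axis is the log2 deviation of the first probe minus that of the last probe of a transcript. Points reach below -1 only on C1 and L2.

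Position and brightness went together. In 36 of the 40 transcripts the first probe was the dimmer one, with a median mean log2 signal of 15.97 for first and 17.79 for last probes. Of the 18 member probes in the first 200 bases with a mean log2 signal under 15, 12 were more than 0.5 below their median on non-irradiated replicate 1 and 11 on irradiated replicate 2. Of the 15 brighter probes in the first 200 bases, 4 and 3 were. Of the 22 probes further along that were as dim, 6 and 7 were, and of the 152 that were further along and brighter, 7 and 5 were. Rps14, a small subunit protein, was low at positions 26, 36 and 167 alike, by -1.02, -1.23 and -1.02 on non-irradiated replicate 1. Rps27, a small subunit protein with a zinc finger, was bright at position 145 and deviated there by only -0.09. The Rpl27 probe at position 164 was an exception among early dim probes, with deviations of -0.04 and 0.21 on the 2 arrays. The part of brightness in the pattern was not tested. The spike-in controls had slopes of log signal on log amount of 1.05 and 1.03 on the 2 arrays, within the 0.943 to 1.06 of all 8 arrays.

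Both subunits had probes in this tail, in unequal shares that were not tested. On non-irradiated replicate 1, 15 of 75 small subunit probes and 14 of 131 large subunit probes were more than 0.5 below their median, and on irradiated replicate 2 the counts were 14 of 75 and 12 of 132. The small subunit also had more probes near the starts of its messages, with 21.3% in the first 200 bases against 12.9% for the large subunit. Past base 600 none of the 8 small subunit probes was that far below on either array, and 0 and 1 of 32 large subunit probes were. The median deviations of the small subunit were -0.11, -0.02, 0.07 and 0.09 on non-irradiated replicates 1 to 4 and -0.04, -0.17, 0.01 and 0.12 on irradiated replicates 1 to 4. Those of the large subunit were -0.04, -0.02, 0.02 and 0.03, and -0.05, -0.07, 0.02 and 0.05. Both subunits were lowest on irradiated replicate 2 and highest on irradiated replicate 4, and they were furthest apart on irradiated replicate 2.

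Most genes of the ribosome varied in parallel over the arrays. For the brightest probe of each of the 84 tested genes, Pearson's r with the median deviation of the other members had a median of 0.78 over the 8 arrays, from -0.92 to 0.96. It was over 0.5 for 57 genes and negative for 16. The medians were 0.72 for the large and 0.81 for the small subunit. These values are descriptions, since the 8 arrays hold both groups and every probe shares the normalization of its array. The median moved by only 0.18 between the lowest and the highest array, and by 0.030 without replicates 1 and 2. No r was computed for other sets of probes or without the 2 arrays that stand apart. The counts thus cannot be called particular to the members. The highest r belonged to Rpl24 (0.96), Rpl5 (0.95) and Rpl34 (0.94), 3 large subunit proteins. Rpl24 gave 18.30, 18.31, 18.49 and 18.48 on non-irradiated replicates 1 to 4 and 18.31, 18.12, 18.36 and 18.48 on irradiated replicates 1 to 4, lowest on irradiated replicate 2 like the median of the members. The lowest belonged to Rpl23a (-0.92), to Rps7 (-0.83) of the small subunit and to Rpl10l (-0.76). Rpl23a is a large subunit protein at the exit of the peptide tunnel. The brightest probes of Rpl23a and Rpl24 were among those that matched differently named probes. Rps7 gave 17.35, 17.25, 17.14 and 17.17 on non-irradiated replicates 1 to 4 and 17.27, 17.28, 17.22 and 17.17 on irradiated replicates 1 to 4. Its highest value was on non-irradiated replicate 1, where the median of the members was low.

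The next comparison asked whether irradiation changed the members at 6 h, within replicate numbers. None of the 207 member probes had an unadjusted p below 0.05 in limma when replicate number was a term of the fit, where 2.54% of all 26391 probes tested did. No member and no other probe passed Benjamini-Hochberg adjustment, and the smallest adjusted p was 1.00. The log2 differences of the members ran from -0.27 to 0.17, with a median of -0.02 against 0.00 for all probes, and 70 were above and 137 below 0. When arrays were scaled to their 75th percentile instead, the median was 0.01 and 130 members were above 0, so that the members as a group had no settled direction. No member had groups that did not overlap, against 0.579% of all probes. In 11 of the 205 members with a value on every array all 4 pairs went in 1 direction (5.37%), against 7.57% of all probes. The median SE of a member's difference was 0.11. In limma this SE is drawn towards that of all probes tested, so for steady members it can exceed their own spread.

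The pairs did not agree. For the 207 members the median difference within a pair was 0.03 in replicate 1, -0.10 in replicate 2, 0.00 in replicate 3 and 0.01 in replicate 4. Members that differed by more than 0.5 numbered 21 and 31 in replicates 1 and 2, and 0 and 1 in replicates 3 and 4, or 10.2%, 14.98%, 0% and 0.483%. For all probes tested the shares were higher in every pair, at 18.98%, 33.1%, 8.82% and 8.86%, with the same 2 pairs on top. For the first probes of the 40 transcripts the medians were 0.18 and -0.29 in replicates 1 and 2, and for the last probes they were 0.00 and -0.05. In replicate 1 the array that stands apart was the non-irradiated one and in replicate 2 the irradiated one, and the first probes went in opposite directions there. Over the members' deviations from their group means, irradiated replicate 2 correlated with non-irradiated replicate 1 at 0.86 and with its own partner at -0.49. The arrays of replicates 1, 3 and 4 correlated at 0.41, 0.71 and 0.90. These are descriptions over probes that share an array. For small subunit probes the pair medians were 0.07, -0.16, -0.05 and 0.01, and for large subunit probes 0.01, -0.07, 0.01 and 0.01. Without replicates 1 and 2 the median of all members was 0.01, and with only the 2 arrays that stand apart left out, as 3 against 3 without the block, it was -0.02. No member had an unadjusted p below 0.05 in either of these limma fits, where 6.34% and 2.12% of all probes did.

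**Figure D4:**
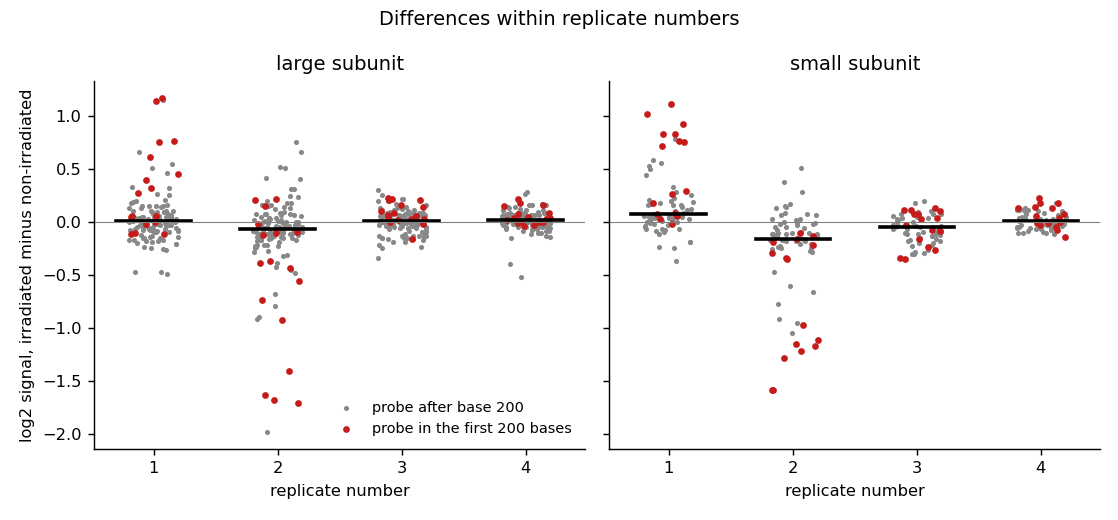
Each point is 1 ribosomal protein probe, with its log2 signal on the irradiated array minus that on the non-irradiated array of the same replicate number on the vertical axis. Red points are probes in the first 200 bases of the transcript, grey points lie further along, and black lines are medians. Red points reach 1.17 in replicate 1 and -1.71 in replicate 2, a few grey points lie as far out, and all points of replicate 3 lie within 0.5 of 0.

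The member probe with the smallest p belonged to Rpl7l1, a paralog of Rpl7 that takes part in the assembly of the large subunit. This dim probe, chosen after its values were seen, gave 5.63, 5.36, 5.61 and 5.92 on non-irradiated replicates 1 to 4 and 5.45, 5.12, 5.46 and 5.41 on irradiated replicates 1 to 4. The irradiated value was lower in 4 of 4 pairs, by 0.18, 0.24, 0.16 and 0.52, while the groups overlapped. The difference was -0.27 ± 0.12 (SE; limma, unadjusted p = 0.0623). With the replicate as a random block, limma gave it an unadjusted p of 0.0473, the single member below 0.05 against 2.63% of all probes. The brightest Rpl7l1 probe differed by -0.04 ± 0.116 (SE; limma, unadjusted p = 0.769) and a further one by -0.08 ± 0.106 (SE; limma, unadjusted p = 0.47).

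By the methods' paired t-test, which they name for other assays and not for the arrays, and without moderation, 5 of 207 members (2.42%) were below an unadjusted 0.05, against 2.80% of all probes, and none passed adjustment. They were the same probe of Rpl7l1, probes of Rpl7a, Rps15a and Rps9, which were lower by 0.06, 0.05 and 0.06, and 1 of Rpl23a, which was higher by 0.16. The Rpl23a probe at position 214 gave 14.39, 14.72, 14.56 and 14.30 on non-irradiated replicates 1 to 4 and 14.54, 14.85, 14.63 and 14.58 on irradiated replicates 1 to 4. It was higher after irradiation in 4 of 4 pairs, and the other Rpl23a probes differed by 0.10, 0.04 and 0.02.

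The stalk proteins bind the translation factors that hydrolyse GTP. Rplp0, which anchors the stalk, gave 18.47, 18.54, 18.73 and 18.85 on non-irradiated replicates 1 to 4 and 18.68, 18.22, 18.56 and 18.90 on irradiated replicates 1 to 4. Its lowest value was on irradiated replicate 2 and its highest on irradiated replicate 4. The difference was -0.05 ± 0.133 (SE; limma, unadjusted p = 0.7), the means being 18.64 ± 0.172 (SD, n = 4) without irradiation and 18.59 ± 0.287 after it. Rplp1 differed by -0.05 ± 0.114 (SE; limma, unadjusted p = 0.706) and Rplp2 by -0.09 ± 0.114 (SE; limma, unadjusted p = 0.478).

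Of the particle that carries 5S RNA and can bind the p53 regulator Mdm2, the late Rpl5 probe differed by -0.01 ± 0.106 (SE; limma, unadjusted p = 0.927). Rpl11 gave 17.73, 17.87, 18.10 and 18.06 on non-irradiated replicates 1 to 4 and 17.81, 17.89, 17.96 and 18.09 on irradiated replicates 1 to 4. Its values were lowest in replicate 1 of both groups, and its difference was 0.00 ± 0.109 (SE; limma, unadjusted p = 0.992). Neither gene differed beyond the spread between replicates.

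Rpsa, which also serves as a laminin receptor at the cell surface, differed by -0.01 ± 0.108 (SE; limma, unadjusted p = 0.928). Rps6, the substrate of the S6 kinases below mTOR, gave 17.20, 17.37, 17.38 and 17.28 on non-irradiated replicates 1 to 4 and 17.27, 17.27, 17.33 and 17.38 on irradiated replicates 1 to 4. These values overlapped between the groups, and the difference was 0.01 ± 0.11 (SE; limma, unadjusted p = 0.961). Rps27a, which is made as a fusion with ubiquitin, differed by -0.06 ± 0.111 (SE; limma, unadjusted p = 0.586). The array levels of Rps6 say nothing of its phosphorylation.

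Among the brightest probes of each gene, the smallest p values for lower signal after irradiation included those of the small subunit proteins Rps20, Rps29 and Rps23 and of Rpl19 of the large subunit. Rps29 gave 18.04, 18.21, 18.65 and 18.71 on non-irradiated replicates 1 to 4 and 18.30, 17.91, 18.31 and 18.57 on irradiated replicates 1 to 4, and its difference was -0.13 ± 0.143 (SE; limma, unadjusted p = 0.4). Pair 1 went up and pairs 2 to 4 went down. The differences of the other 3 were -0.12 for Rps20, -0.10 for Rpl19 and -0.10 for Rps23, with p from 0.37 to 0.42. For higher signal they belonged to 5 large subunit genes, Rpl39l, Rpl27, Rpl10l, Rpl26 and Rpl36a, with p from 0.33 to 0.72 and differences of 0.17, 0.09, 0.08, 0.04 and 0.04. The other 3 probes of Rpl36a and the other probe of Rpl26 and of Rpl19 had the opposite sign.

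Replicate numbers were compared in the same fit by a moderated F-test. Replicates 1 and 2 lay in row 1 of the slide and replicates 3 and 4 in row 2. A difference between these sets of replicates therefore cannot be told apart from one between rows. A single member of 207 passed an adjusted p of 0.05, against 3.31% of all 26371 probes with a value. It was Rpl39l, an intronless paralog of Rpl39 best known from testis. Its 60-base probe lay at chr10:5409629-5409688 on the minus strand of rn4 and differed at 10 positions, in capitals, from the Rpl39 probe at chrX:7826012-7827792 on the plus strand of chromosome X.
Rpl39: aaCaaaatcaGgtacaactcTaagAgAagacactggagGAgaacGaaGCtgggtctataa
Rpl39l: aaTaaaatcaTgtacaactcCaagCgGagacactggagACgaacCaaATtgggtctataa
Counted from the first base of the Rpl39 probe, the differences were C3T, G11T, T21C, A25C, A27G, G39A, A40C, G45C, G48A and C49T.

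Rpl39l was dim and gave 7.82, 6.34, 6.17 and 7.14 on non-irradiated replicates 1 to 4 and 7.81, 7.004, 6.14 and 7.19 on irradiated replicates 1 to 4. Both arrays of replicate 1 were highest and both of replicate 3 lowest, and the arrays of a number lay within 0.05 of each other except in replicate 2, where they were 0.66 apart. The adjusted p of the F-test was 0.0484. The Rpl39 probe printed above had values from 16.75 to 17.13 and was higher in replicates 3 and 4 than in replicates 1 and 2, another order than that of Rpl39l.

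The count moved with each replicate left out. Without replicate 2, 14 member probes of 11 genes passed the F-test, against 21.0% of all 26388 probes. They were Rpl39l and Rpl10l, which were higher on both arrays of replicate 1 than on those of replicates 3 and 4, and 12 probes of Rpl12, Rpl13a, Rpl28, Rpl29, Rpl5, Rpl7, Rps10, Rps19 and Rps2 that were lower on both arrays of replicate 1. These 12 included the first probes of Rps19 and Rpl5 printed above. None passed without replicate 1, 3 or 4 or with no filter on dim probes, where 0.00%, 0.421%, 0.395% and 0.184% of all probes passed, so a count of 0 says nothing of the members. Rps2, a small subunit protein at the entry of the message channel, gave 12.84, 13.87, 13.95 and 14.15 on non-irradiated replicates 1 to 4 and 13.42, 12.96, 14.001 and 14.32 on irradiated replicates 1 to 4 for its brightest probe, lowest on non-irradiated replicate 1 and irradiated replicate 2.

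Further paralogs varied between arrays as well. Rpl10l, an intronless copy of Rpl10 best known from testis, gave 11.94, 11.01, 11.05 and 10.94 on non-irradiated replicates 1 to 4 and 11.69, 11.53, 11.04 and 11.02 on irradiated replicates 1 to 4. Non-irradiated replicate 1, irradiated replicate 1 and irradiated replicate 2 were the highest, the reverse of the first probes of Rps19, Rpl5 and Rps18, and this probe lay at position 1203. Rps4y2, a copy of the X-linked Rps4x, gave 12.11, 12.65, 12.32 and 12.02 on non-irradiated replicates 1 to 4 and 11.86, 13.17, 12.30 and 11.93 on irradiated replicates 1 to 4, with the highest values on both arrays of replicate 2. The single probe of Rps4x, at position 161, gave 12.42, 13.99, 13.69 and 13.80 on non-irradiated replicates 1 to 4 and 13.34, 12.40, 13.82 and 13.94 on irradiated replicates 1 to 4 and was lowest on the 2 arrays that stand apart. Rps27l, a paralog of Rps27 that p53 can induce, gave 16.53, 16.17, 16.14 and 16.25 on non-irradiated replicates 1 to 4 and 16.34, 16.46, 16.18 and 16.26 on irradiated replicates 1 to 4, again highest on non-irradiated replicate 1 and irradiated replicate 2. Rpl22l1 differed between the groups by 0.00 ± 0.119 (SE; limma, unadjusted p = 0.97) and Rps27l by 0.04 ± 0.125 (SE; limma, unadjusted p = 0.78). Rpl3l was not above background on any array and was not tested.

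**Figure D5:**
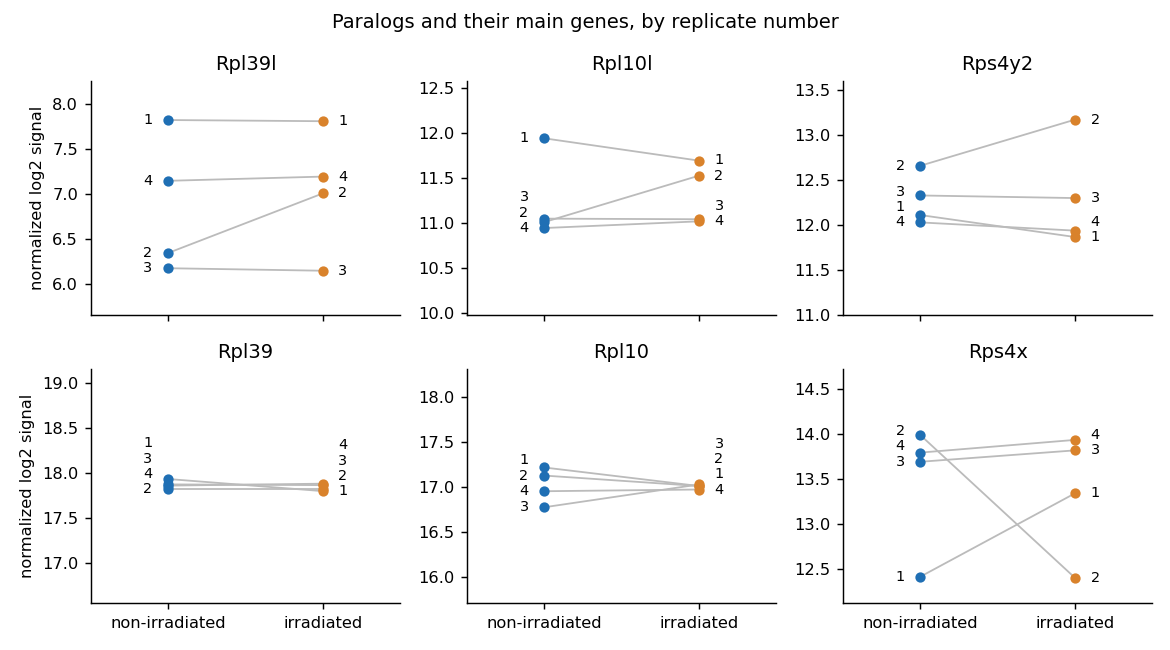
Normalized log2 signal of 3 paralogs (top) and of the brightest probe of their main genes (bottom), with non-irradiated arrays in blue, irradiated arrays in orange, replicate numbers beside the points and grey lines joining arrays of the same number. The vertical axes span the same number of log2 units. Rpl39l has the same order of replicate numbers in both groups, with replicate 2 the one line that slopes, and the lines of Rps4x for replicates 1 and 2 cross.

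Ribosomal proteins that carry other names gave no call either. Of 4 such genes tested, 0 passed an unadjusted 0.05 in either direction, where 2.54% of all probes did. A count of 0 among so few genes says nothing of them. Fau, a fusion of a ubiquitin-like protein and a small subunit protein, differed by 0.01 ± 0.111 (SE; limma, unadjusted p = 0.915). Rack1, a scaffold of the small subunit, gave 10.81, 12.20, 12.30 and 12.49 on non-irradiated replicates 1 to 4 and 11.55, 11.06, 12.47 and 12.64 on irradiated replicates 1 to 4. It was lowest on non-irradiated replicate 1 and irradiated replicate 2, like the first probes of Rps19, Rpl5 and Rps18.

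The genes that build and regulate ribosomes gave calls at or under the share of all probes, 2.54%, which comes to few genes in lists of this size. None of 39 tested genes of ribosome biogenesis, of 16 translation factors with TOP messages or of 17 regulators passed an unadjusted 0.05. Of 73 tested genes of the mitochondrial ribosome 1 did, and none passed adjustment. It was Mrps10, a small subunit protein of the mitochondrial ribosome named after its values were seen, which differed by -0.78 ± 0.305 (SE; limma, unadjusted p = 0.0431). This dim probe was well above background on 7 of 8 arrays, so it met the filter in a single group. Its lowest value was on irradiated replicate 3. For a probe this near background, such a filter can favour a higher signal in the group that passes. No conclusion is therefore drawn from the p of Mrps10. Pair 1 went the other way, from 4.10 to 4.52, and the groups overlapped. The median log2 differences of the 4 lists were -0.01, -0.02, -0.02 and -0.02. Larp1 differed by -0.02 ± 0.132 (SE; limma, unadjusted p = 0.899), Mtor by 0.06 ± 0.258 (SE; limma, unadjusted p = 0.82) and Myc, a transcription factor that raises ribosome production, by 0.15 ± 0.191 (SE; limma, unadjusted p = 0.465). Myc was highest on irradiated replicate 2 and non-irradiated replicate 1 and lowest in replicate 4 of both groups.

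Markers of the cells' label were detected, as were markers of other cells. Among the osteoblast genes Sp7 and Ibsp were dim. Their mean log2 signals were 5.11 and 5.72 without irradiation and 5.21 and 5.73 after it, against a median of 7.58 for all probes tested. All 12 osteoblast genes were well above background on all 8 arrays. So were 5 of 5 endothelial, 5 of 6 muscle, 5 of 5 cartilage and 5 of 5 cell division genes, and 3 of 7 macrophage genes. None of these genes that was tested had an unadjusted p below 0.05 for irradiation in limma, where 2.54% of all probes did. By the F-test, replicate numbers differed for 4 of 5 cartilage, 2 of 12 osteoblast, 2 of 5 endothelial, 1 of 5 muscle and 1 of 5 cell division genes, against the 3.31% of all probes, a share that ran from 0.00% to 21.0% when 1 replicate was left out. The median deviation of the cartilage genes was -1.80 and -1.65 on the 2 arrays of replicate 1, and that of the muscle genes 1.18 and 0.58. That of the cell division genes was 1.44 and 0.98 on the arrays of replicate 4. The summed intensity of the muscle genes ran from 377 to 2532 without and from 414 to 2203 with irradiation, that of the cartilage genes from 7287 to 172679 and from 7408 to 182978, and that of the macrophage genes from 1255 to 1482 and from 1068 to 1697. That of the osteoblast genes ran from 690807 to 773751 and from 562166 to 754694, that of the endothelial genes from 7045 to 13034 and from 7499 to 18146, and that of the cell division genes from 24905 to 71741 and from 25904 to 54359. Cd163, a macrophage marker, was not above background on any array. The part of these other cells in the differences between replicate numbers was not tested.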

How the data were processed

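Total RNA of 8 cultures was labelled with Cy3 and hybridized to 8 one-color arrays of 1 slide, read in 1 scan. The slide was thus not fitted as a block. Columns 1 and 3 held the non-irradiated samples, columns 2 and 4 the irradiated ones, and a column cannot be told apart from the treatment. Row 1 held replicates 1 and 2 and row 2 replicates 3 and 4. A difference between these 2 sets of replicates cannot be told apart from one between rows. The authors deposited the spot intensity as extracted by Agilent Feature Extraction 11.0.1.1, with background and trends within an array corrected and no scaling between arrays. The authors also deposited quantile-normalized log2 values, used here as an alternative.

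Processed intensities of 58717 rat spots were taken to log2 and quantile normalized. Outlying spots were dropped before the mean over a probe's spots was taken. A probe was tested when more than 50% of its spots were well above background on all 4 arrays of a group. The groups were compared by limma (version 3.58.1, R 4.3.3; lmFit, eBayes), two-sided, with a term for each replicate number and Benjamini-Hochberg adjustment over all probes tested. Replicate numbers were compared by the moderated F-test of the same fit. The scripts were tested on simulated data. With 4 arrays per group, their number limits the precision. In the main fit, the p-values for irradiation weigh a probe's mean difference against the spread of its differences within replicate numbers. The spread between replicate numbers is taken up by their term. Each probe's variance is drawn towards that of all probes tested. For the steady Rpl30l1 the SE was 0.106, though its values ranged over only 0.09.

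The block follows the study's own statistics, whose t values derive from differences within replicate numbers, and the animal numbers of the files. Once group means were removed, arrays of the same number, 1 to 4, correlated at 0.608, 0.0542, 0.571 and 0.749 over all probes. The members, lists and tests were chosen with earlier results of these data known. The genes named are those of the stalk, of the 5S particle, Rpsa, Rps6, Rps27a and the paralogs, with the 5 smallest p in each direction, the 5 largest and 3 smallest ranges and the 3 highest and lowest correlations, by the brightest probe of a gene. Others were chosen after their values were seen. From the neighbouring lists, genes with p below 0.01 were to be named, of which there were 0, besides those fixed by name. Some genes that these rules name are not reported here.

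Gene names, positions in transcripts and coordinates (build rn4) are those of the array. For 211 of 212 pairs of member probes of a transcript, the order of positions matched that along the genome. Of the 85 names, 83 are current in RefSeq (GRCr8), where the transcript named Rpl39l is now Rpl39l1 and that of 2 Rpl37 probes Rpl37l1. Similar probes were sought with blastn 2.17.0. Exon and UTR annotation of rn4 was not used here.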

Additional observations from a re-analysis of the deposited data

Results flagged for a closer look

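Each group of 4 arrays was searched for an array far from the other 3, in 78 groups of values, and 6 stood out. Chance gives about 1 in 20 among groups not picked by their values, a rate that does not apply here, since several genes were named for extreme values and the probes of Rps19, Rpl5 and Rps18 for being low on this array. These probes accounted for 3 of the 6. On non-irradiated replicate 1 the Rps19 probe at position 66 was at 12.50, next to 14.01 for the nearest array of the group, the Rpl5 probe at position 367 at 11.79, next to 13.66, and the Rps18 probe at position 64 at 12.55, next to 14.04. In the irradiated group irradiated replicate 2 was lowest for these probes without reaching the limit, because irradiated replicate 1 was low as well.

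Rpl10l was far above the other non-irradiated arrays on non-irradiated replicate 1, at 11.94, next to 11.05. Rplp1 was highest on non-irradiated replicate 4, at 18.44, next to 18.20. Rpl30l1 was highest on irradiated replicate 4, at 17.33, next to 17.28, within a range of 0.09 over all arrays.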

How the results depend on the processing

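The count of members below an unadjusted 0.05 for irradiation was 0 in the main comparison and under every alternative except 2, the random replicate block with 1 and the methods' paired t-test, which they name for other assays, with 5. With no replicate block it was 0, so no call for irradiation changed between the paired and the unblocked fit. When each replicate was left out in turn it stayed at 0. The count of members that differed between replicate numbers was 1, and it was 0 with no filter on dim probes and without replicates 1 and 2. Without replicates 1 and 2, 0 of all 26381 probes differed as well, so that count says nothing of the members. Leaving out 1 replicate each gave 0 to 14, the 14 without replicate 2. The cause was not tested. Over all probes, the irradiation count was 670. It was 246 with no replicate block, 249 with normexp, 251 with the uncorrected mean signal, 292 with the values the authors deposited, 383 with a trend and robust prior, 1658 with no filter and 1673 without replicates 1 and 2, and leaving out 1 replicate gave 389 to 1407. The replicate count over all probes was 84 with no filter, 1533 with normexp, 1617 with the mean signal, 1733 with the deposited values and 1401 with the trend and robust prior. Leaving out 1 replicate gave 0 to 5535.

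The median difference of the members was -0.018. Over the alternatives it lay between -0.036, without replicate 1, and 0.015, with scaling to the 75th percentile, all within 1 SD of the pair medians, and the sign was positive under that scaling, without replicate 2 and without replicates 1 and 2. The difference of the large minus the small subunit was 0.025 and lay between 0.01 and 0.06. The range of the members' median deviation over the arrays was 0.18, 0.34 with scaling to the 75th percentile, and 0.030 over the 4 arrays without replicates 1 and 2, the latter with fewer arrays by construction. With the last probe of each gene it was 0.15. Of 560 log2 differences of the 32 named and tested genes under 18 alternatives, 6 moved by more than 1 SD of the pairs. The alternatives without replicates 1 and 2, without the 2 arrays that stand apart and with the last probe of each gene were chosen after seeing the data. Signal over background set few limits here, since 207 of 209 member probes were above background on all arrays.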
